A study of Mus musculus with 4 samples.

Results

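The genes described here encode the IL-17, IL-21, IL-22 and IL-12 family cytokines: Il17a, Il17f, Il21, Il22, Il23a, Il12a, Il12b, Ebi3 and Il27. These 9 genes were taken by name from the platform annotation of the array table, and where a gene had several probe sets the one of highest mean signal was read. Of the 9, 8 had a probe set annotated to them alone, among 19938 genes of the table that did, and 7 were tested, among 14953 genes whose mean reached the filter level of 2.59 log2. Il12b had a mean of 2.50 and was not tested, and both probe sets naming Il22 were also annotated to its near-identical copy Iltifb.

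Tc17 cells, which are IL-17-producing CD8+ T cells, were compared with cytotoxic T lymphocytes (CTL) on 4 whole-transcript Affymetrix arrays, 2 per group. All cells were wild-type C57BL/6 mouse CD8+ T cells, isolated from spleen and lymph nodes by magnetic negative selection and described as naive in the series design. For the Tc17 group the cells were cultured for 2 days with IL-2, IL-6, TGF-β and an antibody against IFN-γ, and for the CTL group for 2 days with IL-2 and the same antibody. The study's methods for Tc17 cells also name priming with antibodies against CD3 and CD28, and describe no CTL culture. The effects of IL-6 and of TGF-β cannot be told apart in this design, and both groups received the IFN-γ antibody. The 2 arrays of a group were labelled as biological replicates and the animals behind them are not given, so the tests set each difference against the spread between arrays, which may be technical. The study used the arrays to define Tc17 and CTL gene sets; here the question was which of the cytokine genes differed between the 2 cultures.

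The arrays correlated at r = 0.993 within the Tc17 group and 0.993 within the CTL group, and between 0.967 and 0.973 across groups (over the 14953 genes tested, as a description). Cd8a, which encodes a chain of the CD8 co-receptor, was at 10.00 and 10.08 log2 in Tc17 cells and 9.21 and 9.53 log2 in CTL. Of the 6 CD8 T cell markers, 4 were higher in Tc17 cells and none was lower (Cd8a itself only with CTL replicate 1 and Tc17 replicate 2 included, adjusted p = 0.0734 and 0.0512 without them), and Cd4 was at 3.28 and 2.83 log2 in Tc17 cells against 3.21 and 2.92 log2 in CTL. The other CD4 T cell marker, Zbtb7b, which encodes the CD4 lineage factor ThPOK, had 4.53 and 4.34 log2 in Tc17 cells and 4.97 and 5.16 log2 in CTL (-0.63 ± 0.14 log2, limma adjusted p = 0.00923, and 0.0667 without CTL replicate 2 or 0.0752 without Tc17 replicate 2). No marker of γδ or innate-like T cells passed the test (0 of 3 tested) and none of B cells did (0 of 3 tested). Among the latter, Cd79b read 5.14 and 5.02 log2 in Tc17 cells and 4.78 and 4.53 log2 in CTL (0.43 ± 0.14 log2, limma adjusted p = 0.0619). Cd79a and Pax5 lay between 2.54 and 3.25 log2 on all arrays. These tests compare the groups and do not show that a cell type was absent. For these and the later marker lists, 8.22% of all genes tested were higher and 7.44% lower.

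IL-17A and IL-17F are closely related cytokines that act on epithelial and stromal cells through IL-17RA and IL-17RC and bring neutrophils to a tissue. IL-21 and IL-22 are often made by the same type 17 lymphocytes: the first acts back on lymphocytes through the common γ chain and STAT3, the other acts on epithelial cells. The IL-12 family is built from shared chains, so that IL-23 needs Il23a with Il12b, IL-12 needs Il12a with Il12b, IL-27 needs Il27 with Ebi3, and IL-35 needs Il12a with Ebi3. Dendritic cells and macrophages are the usual source of IL-12, IL-23 and IL-27, and T cells are their target.

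Il17a and Il17f lie side by side on chromosome 1 on opposite strands, and the sequence before their starts is shown because these 2 genes and Il21 were the cytokine genes that rose in Tc17 cells. RefSeq's promoter table (GRCm38.p6) held 7 of the 9 genes. The windows of 250 bases before and 50 bases after each start were searched on both strands for AGGTCA, a site of ROR and other nuclear receptors, for TTCNNNGAA, the STAT motif, for TGANTCA, the AP-1 motif, for GGAAA, the NFAT core, and for CACCT, a core of T-box and E-box elements. Capitals mark matches to the first 3 of these motifs, and the match in Il17a reads as the reverse complement. The Il17a sequence is the 250 bases before the start (chr1:20730655-20730904, plus strand). For Il17f only the 30 bases around the match are given (chr1:20784311-20784340, minus strand), because the annotated gene reaches 1004 bases upstream of this start.
Il17a: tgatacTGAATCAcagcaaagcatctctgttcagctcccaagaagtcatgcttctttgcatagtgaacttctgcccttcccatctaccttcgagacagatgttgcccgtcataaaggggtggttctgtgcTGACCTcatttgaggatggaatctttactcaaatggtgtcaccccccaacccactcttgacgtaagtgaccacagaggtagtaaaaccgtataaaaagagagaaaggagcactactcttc
Il17f: cagtcagtaaggAGGTCAgtggaaacaggg

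AGGTCA occurred 1 time in the window of Il17a, at position -120 from the start, and 1 time in that of Il17f, at -58, whereas 16.2% of the 32544 distinct promoter windows of the table held it. TGANTCA occurred in Il17a at -244, against 7.79% of all windows. None of these matches overlapped another. Il21 held no AGGTCA, TTCNNNGAA or TGANTCA, but 3 matches to GGAAA and 2 to CACCT, which 61.5% and 52% of all windows also held. Il22, Il12a (both of its windows), Il12b and Ebi3 held none of the first 3 motifs. These matches describe the letters of the windows only.

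Among the 7 tested cytokine genes, Il17f, Il21 and Il17a were higher in Tc17 cells, Il23a was lower, and Il12a, Ebi3 and Il27 did not pass the test (limma with Benjamini-Hochberg adjustment over all genes, threshold 0.05). Over all 14953 genes tested 8.22% were higher, 7.44% were lower and 15.7% were called in either direction. The tested cytokine genes had a median difference of 0.05 log2, against 0.02 log2 over all genes tested. Non-overlapping values were seen for 4 of the 7, and for 54.4% of all genes tested.

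**Figure D1:**
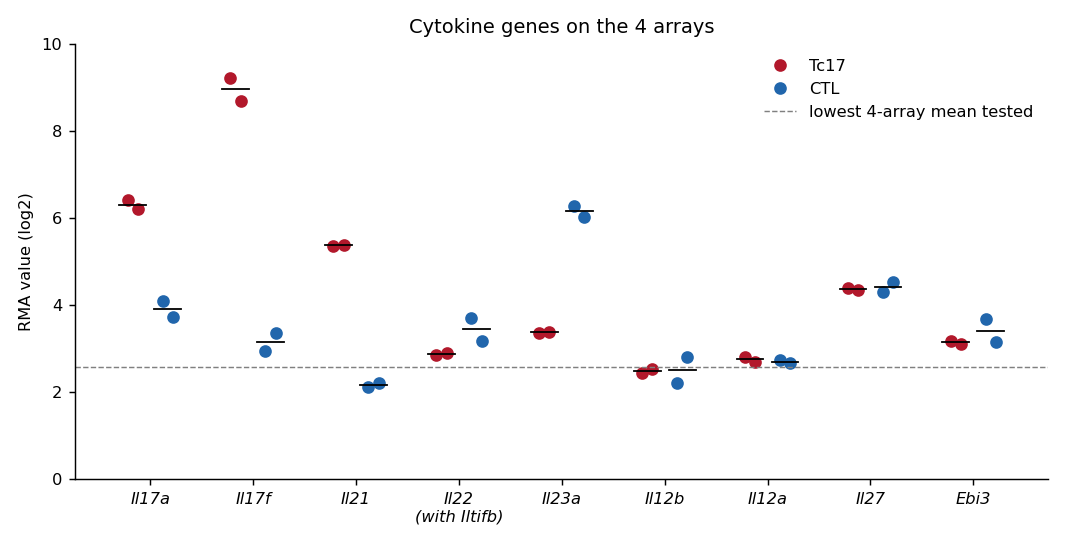
RMA value (log2, y axis) of each cytokine gene on the 2 Tc17 arrays (red) and the 2 CTL arrays (blue), with black bars for group means and a dashed line at the lowest mean tested, 2.59. The Il17a, Il17f and Il21 points of Tc17 cells lie above those of CTL and the Il23a points below them, while the points of Il12b, Il12a, Il27 and Ebi3 overlap.

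Il17f had 9.22 and 8.70 log2 in Tc17 cells and 2.94 and 3.35 log2 in CTL. The means were 8.96 ± 0.37 in Tc17 cells and 3.15 ± 0.29 in CTL (SD, n = 2 each), and the difference of 5.81 ± 0.19 log2 (SE, 95% interval 5.40 to 6.23) was a 56.2-fold higher signal in Tc17 cells (limma adjusted p = 3.16e-08). It was the largest increase of all genes tested. The fold rests on low CTL values, of which 2.94 log2 cannot be placed above background. In RNA of a whole culture, more cells expressing a gene and more RNA per cell cannot be told apart, for this gene and for those that follow.

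Il17a had 6.41 and 6.21 log2 in Tc17 cells against 4.09 and 3.74 log2 in CTL. The lowest Tc17 array was above the highest CTL array, with means of 6.31 ± 0.14 in Tc17 cells and 3.92 ± 0.25 in CTL. The difference was 2.39 ± 0.15 log2 (95% interval 2.06 to 2.73), 5.26-fold (limma adjusted p = 2.17e-06), and ranked at place 30 among the increases.

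Within each array the Il17f value was set against the Il17a value, since the 2 proteins share a receptor and pair with each other. Il17f exceeded Il17a by 2.81 and 2.49 log2 on the Tc17 arrays, and the difference was -1.15 and -0.39 log2 on the CTL arrays. The difference between the groups was thus 3.42 log2, which means that the Il17f signal moved further than the Il17a signal and not that one transcript was more abundant, because levels of different probe sets are not on a common scale. The exact two-sided permutation p was 0.33, the smallest that 2 against 2 arrays allow, and 0.556 after adjustment over the 5 pairs examined.

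Il21 had 5.36 and 5.39 log2 in Tc17 cells and 2.13 and 2.20 log2 in CTL. Its replicates lay closer together than those of both Il17 genes, with means of 5.38 ± 0.02 in Tc17 cells and 2.17 ± 0.05 in CTL. The difference was 3.21 ± 0.13 log2 (95% interval 2.93 to 3.48), 9.23-fold (limma adjusted p = 6.68e-08, place 11 among the increases). The CTL values were under the filter level of 2.59, so that Il21 was tested only because of its level in Tc17 cells, and the fold rests on CTL values near the floor of the table.

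The probe sets annotated to Il22 and Iltifb went the other way, at low signal. The brighter of the 2 read 2.87 and 2.91 log2 in Tc17 cells and 3.71 and 3.19 log2 in CTL, and the other read 2.84 and 2.92 log2 in Tc17 cells and 3.70 and 3.15 log2 in CTL. The groups did not overlap on either probe set, and in both cases CTL replicate 1 was the highest of the 4 arrays. With the brighter probe set added to the fit, a choice made after seeing the data, the difference was -0.56 ± 0.17 log2 (95% interval -0.92 to -0.19, limma adjusted p = 0.0446). In the fit of every row of the table, which included both probe sets from the start, it did not pass the test (adjusted p = 0.271, and 0.298 for the other probe set). In the fit that called it, the difference was -0.30 log2 without CTL replicate 1 (adjusted p = 0.312), -0.53 without Tc17 replicate 1 (0.129) and -0.58 without Tc17 replicate 2 (0.121), so the call is lost without any of these 3 arrays and was kept only without CTL replicate 2 (-0.82, adjusted p = 0.00742). A probe set annotated to Iltifb alone had 2.70 and 2.36 log2 in Tc17 cells and 2.30 and 2.19 log2 in CTL, under the filter level on average. Signal of the shared probe sets cannot be assigned to 1 of the 2 copies.

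Il23a, the chain particular to IL-23, was the cytokine gene of this group that fell in Tc17 cells. It had 3.36 and 3.39 log2 in Tc17 cells and 6.29 and 6.03 log2 in CTL, with no overlap. The means of 3.38 ± 0.02 in Tc17 cells and 6.16 ± 0.18 in CTL differed by -2.78 ± 0.14 log2 (95% interval -3.08 to -2.48), a 6.87-fold lower signal in Tc17 cells (limma adjusted p = 3.18e-07, place 6 among the decreases).

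Il12b encodes the chain that IL-23 and IL-12 share. It read 2.45 and 2.52 log2 in Tc17 cells and 2.22 and 2.81 log2 in CTL, so both Tc17 arrays lay between the CTL arrays. In the fit without a filter the difference was -0.03 ± 0.18 log2 (95% interval -0.42 to 0.37, limma adjusted p = 0.966). Values this low cannot be placed above background. Set against Il12b within each array, Il23a was 0.91 and 0.87 log2 above it in Tc17 cells and 4.07 and 3.22 log2 above it in CTL. The shift of -2.75 log2 therefore adds nothing to the -2.78 log2 of Il23a itself beyond variation of Il12b at the floor of the table, and its exact permutation p was 0.33 (0.556 adjusted over 5 pairs), again the smallest possible.

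Il12a encodes the second chain of IL-12. It had 2.82 and 2.70 log2 in Tc17 cells and 2.73 and 2.68 log2 in CTL, close to the filter level and overlapping. The difference was 0.05 ± 0.13 log2 (95% interval -0.23 to 0.33, limma adjusted p = 0.855), and 81.7% of all genes tested had a difference of larger size. Against Il12b within arrays it was 0.37 and 0.17 log2 in Tc17 cells and 0.51 and -0.13 log2 in CTL, a shift of 0.08 log2 with an exact permutation p of 1.

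Il27, the chain particular to IL-27, was measured well above the filter level and with similar values in both groups. It had 4.39 and 4.36 log2 in Tc17 cells and 4.31 and 4.54 log2 in CTL. The difference was -0.05 ± 0.13 log2 (95% interval -0.35 to 0.25, limma adjusted p = 0.872), so that changes within this interval in either direction remain possible. Ebi3, its partner chain, had 3.19 and 3.11 log2 in Tc17 cells and 3.68 and 3.16 log2 in CTL. Only CTL replicate 1 stood above both Tc17 arrays, and the difference of -0.27 ± 0.17 log2 (95% interval -0.64 to 0.10) did not pass the test (limma adjusted p = 0.357). It was -0.01 log2 without CTL replicate 1 and -0.53 log2 without CTL replicate 2.

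The partner chains of IL-27 and of IL-35 were compared within arrays in the same way. Il27 exceeded Ebi3 by 1.21 and 1.24 log2 in Tc17 cells and by 0.63 and 1.38 log2 in CTL, with a shift of 0.22 log2 (exact permutation p = 1). Il12a minus Ebi3 was -0.36 and -0.42 log2 in Tc17 cells and -0.95 and -0.48 log2 in CTL, with a shift of 0.32 log2 (exact permutation p = 0.33, adjusted 0.556). These values do not show that the chains stayed in step, since no pair could pass a threshold of 0.05 with 2 arrays a group.

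**Figure D2:**
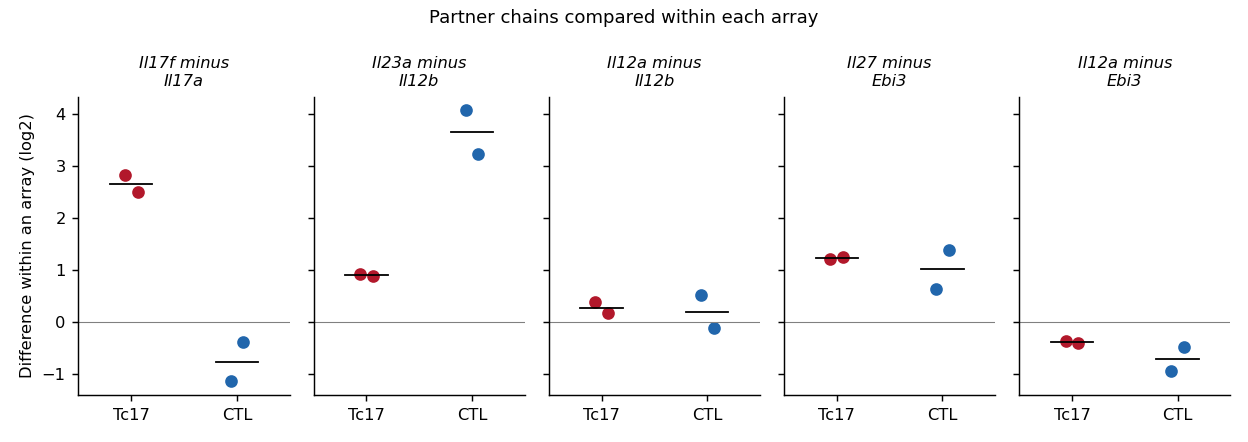
Difference between the RMA values of 2 partner or related chains within each array (log2, y axis), for Tc17 (red, left) and CTL (blue, right) in each panel, with black bars for means. Il17f minus Il17a lies at 2.81 and 2.49 in Tc17 cells, above -1.15 and -0.39 in CTL, and Il23a minus Il12b at 0.91 and 0.87 in Tc17 cells, below 4.07 and 3.22 in CTL.

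**Figure D3:**
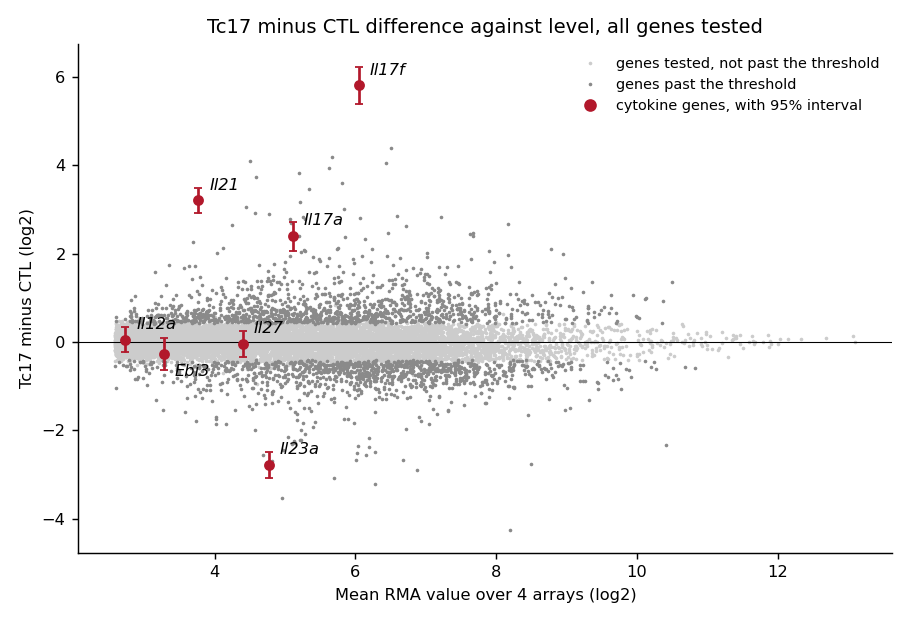
Tc17 minus CTL difference (log2, y axis) against the mean value over the 4 arrays (log2, x axis) for the genes tested (light grey not past the threshold, dark grey past it) and the 7 tested cytokine genes (red, bars are 95% intervals). Il17f stands above all other genes at 5.81, Il21 at 3.21 and Il17a at 2.39 lie among the large increases, and Il23a at -2.78 among the large decreases.

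Markers of the cells that usually make IL-12, IL-23 and IL-27 were read beside these values. Of 12 dendritic cell and macrophage markers 11 had a probe set and 4 were tested. Cd68, a lysosomal glycoprotein, was higher in Tc17 cells by 1.01 ± 0.17 log2 (limma adjusted p = 0.00236) and the other 3 did not pass the test. Lyz2, Adgre1, Clec9a, Xcr1, Siglech, Cd209a and Tlr4 were under the filter level in the mean of the arrays. The summed linear signal of the list was 101 and 93.3 in Tc17 cells and 78.8 and 75.3 in CTL. Without Cd68 the other 10 summed to 61.5 and 63.6 in Tc17 cells and 59.4 and 60.3 in CTL, and the part of such cells in the Il23a difference was not tested. Among natural killer and group 3 innate lymphoid cell markers Kit was higher in Tc17 cells by 1.76 ± 0.18 log2 (limma adjusted p = 6.26e-05), Tyrobp did not pass the test, and Ncr1 and Klrb1c were under the filter level. The summed signal of these 4 genes was 62.1 and 79.5 in Tc17 cells and 31.7 and 36.5 in CTL. Without Kit the other 3 did not follow that sum, at 17.3 and 16.4 in Tc17 cells and 17.6 and 19.0 in CTL. Ncr1 and Klrb1c read lower on both Tc17 arrays than on either CTL array, at values that cannot be placed above background. Groups did not overlap for 54.4% of all genes tested. The part of these cells in the differences of the cytokine genes was not tested.

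Receptor chains for these cytokines and related chains, among them Il6ra, Il17rb and Il17re, were read next, since the cells can also respond to cytokines. Of 16 receptor chains 15 had a probe set and 14 were tested, with 5 higher in Tc17 cells, 1 lower and 8 not past the threshold (median 0.08 log2). For this list and those that follow, the shares over all genes tested were 8.22% higher and 7.44% lower. Il6st, which encodes gp130, the signalling chain of the IL-6 and IL-27 receptors, had 6.82 and 6.98 log2 in Tc17 cells and 5.16 and 4.90 log2 in CTL (difference 1.88 ± 0.14 log2, limma adjusted p = 8.72e-06). Il6ra, the IL-6 binding chain, had 5.78 and 6.04 log2 in Tc17 cells and 4.11 and 4.09 log2 in CTL (1.81 ± 0.14 log2, adjusted p = 9.09e-06). The third was Il17ra, the chain through which both IL-17A and IL-17F signal, at 7.60 and 7.71 log2 in Tc17 cells and 5.97 and 5.97 log2 in CTL (1.68 ± 0.13 log2, adjusted p = 9.08e-06).

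Il21r and Il27ra, the private chains for IL-21 and IL-27, were also higher, by 0.63 ± 0.13 log2 (limma adjusted p = 0.00577) and 0.59 ± 0.13 log2 (0.00866). For Il27ra the adjusted p was 0.0564 without CTL replicate 1 and 0.0532 without Tc17 replicate 2. The 1 receptor gene that fell was Il12rb2, the signalling chain of the IL-12 receptor, with 6.90 and 7.64 log2 in Tc17 cells and 8.62 and 8.43 log2 in CTL (-1.25 ± 0.20 log2, adjusted p = 0.00173). Its partner Il12rb1, which the IL-12 and IL-23 receptors share, read 6.91 and 7.02 log2 in Tc17 cells and 7.74 and 7.24 log2 in CTL and did not pass the test (-0.52 ± 0.17 log2, adjusted p = 0.0584). Il23r, the private chain for IL-23, had 2.999 and 2.79 log2 in Tc17 cells and 2.23 and 2.67 log2 in CTL, without overlap but at low signal (0.44 ± 0.16 log2, adjusted p = 0.0970).

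**Figure D4:**
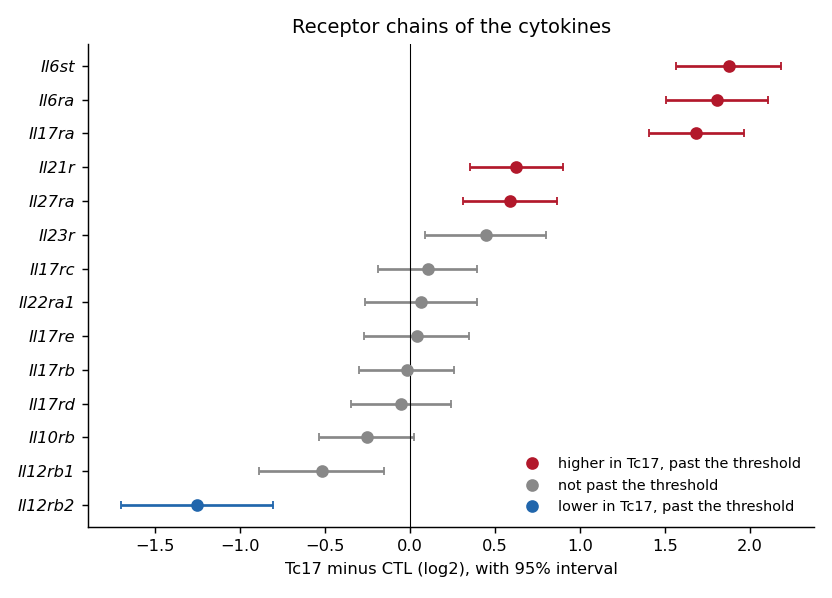
Tc17 minus CTL difference (log2, x axis) with its 95% interval for the 14 tested receptor chains, those of these cytokines and related ones such as Il6ra. Points are red where higher in Tc17 cells, blue where lower and grey where the test was not passed. Il6st, Il6ra and Il17ra lie between 1.68 and 1.88, and Il12rb2 lies at -1.25.

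Related ligands were examined by family. Of the 4 other IL-17 family ligands, all tested, none passed the test, and the one with the smallest p, Il17c, had a difference of 0.27 ± 0.14 log2 (limma adjusted p = 0.247). Of 8 other gp130 group ligands 5 were tested, with 1 higher and 2 lower. Lif, the leukaemia inhibitory factor, fell by 2.38 log2 (SE 0.17, adjusted p = 6.13e-06), with 5.26 and 4.77 log2 in Tc17 cells and 7.50 and 7.28 log2 in CTL. Osm, oncostatin M, differed by -0.83 ± 0.17 log2 (adjusted p = 0.00785), and Clcf1, a cardiotrophin-like cytokine, was higher by 0.51 ± 0.15 log2 (adjusted p = 0.0406). The Osm call was lost without CTL replicate 1 (adjusted p = 0.0609) and the Clcf1 call held only without Tc17 replicate 1 (0.0172), with 0.33 log2 without Tc17 replicate 2 (0.301).

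Of 6 further genes, common γ chain ligands and the related Il13, which does not use that chain, 4 were tested, with none higher and 2 lower. Il2, the T cell growth factor, had 3.28 and 3.38 log2 in Tc17 cells and 5.05 and 3.79 log2 in CTL (-1.10 ± 0.30 log2, limma adjusted p = 0.0284). Its call was kept only without CTL replicate 2, where the difference was -1.72 log2, and the difference was -0.47 log2 without CTL replicate 1 (adjusted p = 0.102). Il13, a type 2 cytokine, was at -0.66 ± 0.15 log2 (adjusted p = 0.0120, and 0.101 without CTL replicate 1 or 0.0582 without Tc17 replicate 1). Of 4 other IL-10 family ligands only Il24 was tested, at -1.22 ± 0.30 log2 (adjusted p = 0.0164) with -0.64 log2 without CTL replicate 1 (adjusted p = 0.0745) and -0.98 log2 without Tc17 replicate 2 (0.102). In these 3 genes, as in the Il22 and Iltifb probe sets and Ebi3, CTL replicate 1 had the highest value of the 4 arrays.

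Transcription factors known to act on these cytokine genes formed a list of 27, all tested, of which 12 were higher, 4 were lower and 11 did not pass the test (median 0.40 log2). Over all genes tested 8.22% were higher and 7.44% were lower. This list, like the others, was chosen with earlier results of these data known, so its counts are a description. Not all of its calls held without each array in turn. Ahr, the aryl hydrocarbon receptor, had 7.55 and 7.65 log2 in Tc17 cells and 3.73 and 3.57 log2 in CTL (3.95 ± 0.13 log2, limma adjusted p = 3.16e-08). Maf, a bZIP factor that acts at the Il21 gene, had 6.23 and 6.57 log2 in Tc17 cells and 4.12 and 3.89 log2 in CTL (2.39 ± 0.15 log2, adjusted p = 2.16e-06). Eomes, a T-box factor of cytotoxic cells, had 3.07 and 3.73 log2 in Tc17 cells and 6.26 and 5.68 log2 in CTL (-2.57 ± 0.22 log2, adjusted p = 2.70e-05), and Gfi1, a zinc finger repressor, differed by -0.89 ± 0.19 log2 (adjusted p = 0.00912) and by -0.56 log2 without CTL replicate 1 (0.0632) or -0.77 log2 without Tc17 replicate 2 (0.0602).

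Of 14 genes of intracellular IL-17 receptor signalling 12 were tested, 1 was higher and 1 was lower. Tnfaip3, which encodes the ubiquitin-editing enzyme A20, was higher by 0.61 ± 0.15 log2 (limma adjusted p = 0.0173), but not past the threshold without CTL replicate 2 (0.123) or Tc17 replicate 2 (0.127). Cebpb, a factor induced by IL-17 in stromal cells, differed by -0.66 ± 0.14 log2 (adjusted p = 0.00784), and by -0.53 log2 without CTL replicate 1 (0.0678).

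The 2 nearest genes with a probe set on each side of every cytokine gene were read to see whether neighbours moved with them. Of 32 such genes that are not themselves among the cytokine genes 26 were tested, with 2 higher and 4 lower. The shares over all genes tested were 8.22% higher and 7.44% lower, and whether these counts set the neighbours apart from other genes was not tested. Beside the 2 Il17 genes, Mcm3, a replication helicase subunit, had 8.69 and 8.55 log2 in Tc17 cells and 8.57 and 8.63 log2 in CTL (0.02 ± 0.13 log2, limma adjusted p = 0.953). The next gene, Paqr8, a membrane progestin receptor, had 3.68 and 3.92 log2 in Tc17 cells and 3.07 and 3.09 log2 in CTL (0.72 ± 0.13 log2, adjusted p = 0.00374).

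Beside Il21 lies Il2, which differed in the opposite direction, as given above. Beside Il22 and Iltifb lies Ifng, the type 1 effector cytokine, with 5.91 and 6.24 log2 in Tc17 cells and 10.57 and 10.08 log2 in CTL (-4.25 ± 0.18 log2, limma adjusted p = 1.07e-07). None of the 4 genes around Il23a passed the test. Mfsd1, near Il12a, was higher by 0.68 ± 0.13 log2 (adjusted p = 0.00409), while Nupr1 and Sgf29, near Il27, differed by -0.56 ± 0.13 log2 (0.0133) and -0.50 ± 0.13 log2 (0.0258). The Nupr1 call was lost without CTL replicate 2 (0.0805) or Tc17 replicate 1 (0.0760), and the Sgf29 call without any 1 of the 4 arrays.

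**Figure D5:**
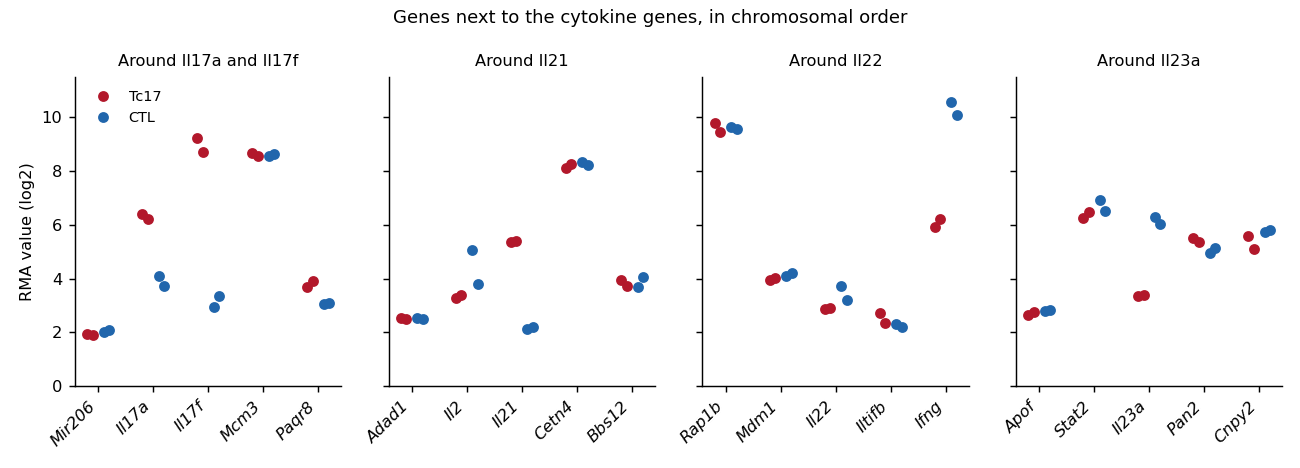
RMA value (log2, y axis) on the Tc17 (red) and CTL (blue) arrays for the cytokine genes and their nearest genes in chromosomal order; the Il22 points are the probe set shared with Iltifb. Il17a, Il17f and Paqr8 are higher in Tc17 cells with Mcm3 between them at similar values, Il21 is higher beside a lower Il2, and Ifng is lower beside the Il22 and Iltifb genes.

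For each cytokine gene that passed the test the 3 genes with the most similar pattern over the 4 arrays were found by the Euclidean distance between values centred on each gene's own mean (unnamed predicted genes left out). Nearest to Il17f, at some distance, was Nt5e (distance 1.52), the ectonucleotidase CD73, followed by Timp1 (1.74), a metalloproteinase inhibitor, and Itgae (1.75), the αE integrin chain CD103. Nearest to Il17a were Klrc1 (0.203), the receptor chain NKG2A, Lax1 (0.346), a transmembrane adaptor, and Sesn3 (0.352), a sestrin. Nearest to Il21 were Ust (0.205), a sulfotransferase, Sema4f (0.275), a semaphorin, and Aqp3 (0.339), a water and glycerol channel. Nearest to Il23a were Atf3 (0.120), a stress-induced factor, Serpinb6b (0.134), a serpin, and Cd80 (0.138), a co-stimulatory ligand. The distances are over 4 arrays in 2 groups, so that any genes with a group difference of the same size come close together.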

How the data were processed

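The authors normalised the 4 arrays by RMA and deposited 1 table of 35557 rows, whose values, from 1.18 to 13.70, were read as log2. The sources used here name neither the RMA version and settings nor the base of the logarithm, and no detection call was at hand, so values of about 2 to 3 log2 cannot be placed above or below background. The number of arrays limits the precision. Gene names came from GEO's platform annotation (21789 rows with 1 symbol, 1621 with several, which named no gene, and 12147 unlisted); 21698 rows matched a RefSeq gene identifier, and no symbol changed.

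For each gene the probe set with the highest mean was kept, and the 4985 genes with a mean below the 25th percentile, 2.59 log2, were left out. limma 3.58.1 (R 4.3.3) compared Tc17 with CTL in all 4 arrays without a replicate block, with 2 residual and 8.98 prior degrees of freedom and Benjamini-Hochberg adjustment. Partner chains were compared within arrays by exact permutation tests (scipy 1.17.1). Scripts were tested on simulated data. From each gene list the 2 largest increases and 2 largest decreases past the threshold were named, or the gene with the smallest p. Some other receptor chains, some markers (Kit, Cd68 and Cd79b among them) and the neighbours past the threshold were named in addition, some after their values were seen. The remaining receptor chains were not described one by one. The cytokine genes and lists were chosen with earlier results of these data known. Alternatives were no filter, a median filter, trended moderation, cyclic loess, median centring, averaged probe sets, every row, a replicate block, stricter thresholds and leaving out each array.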

Additional observations from a re-analysis of the deposited data

How the results depend on the processing

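Il17a, Il17f, Il21 and Il23a kept their direction and their call in all 13 alternatives (highest adjusted p 0.0136, 0.00506, 0.00456 and 0.00616), and the counts of 3 cytokine genes higher and 1 lower stayed the same in all of them. Leaving out 1 array moved the differences between 2.22 and 2.57 log2 for Il17a, 5.55 and 6.08 for Il17f, 3.17 and 3.24 for Il21 and -2.91 and -2.65 for Il23a. The small differences changed sign in some settings: Il12a ranged from -0.0108 (without Tc17 replicate 1) to 0.1163 log2 and Il27 from -0.16 to 0.0652 (without CTL replicate 2). Without 1 array each, the within-array shifts ranged from 3.04 to 3.80 for Il17f against Il17a and from -3.18 to -2.33 for Il23a against Il12b. They ranged from -0.24 to 0.40 for Il12a against Il12b, from -0.16 to 0.60 for Il27 against Ebi3 and from 0.09 to 0.55 for Il12a against Ebi3. Averaging probe sets could change neither these shifts nor the differences above, since each of these genes had 1 probe set.

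The count of all genes past the threshold, 2342, was 684 when every row was tested and 919 with an adjusted p under 0.01 and a difference of at least 0.75 log2, and it ranged from 1421 to 1924 with 1 array left out. Of the calls, 52.5% were higher in Tc17 cells, and over the alternatives this share ran from 49.3% (without Tc17 replicate 1, where more calls were lower than higher) to 61.3% (every row). Of 42 list, marker and neighbour genes past the threshold 22 stayed past it without each array in turn. With the replicate number as a block the count was 2322 and no call among the cytokine genes changed. The deviations of same-numbered arrays correlated at 0.02. That value cannot show whether same-numbered arrays were made together, and the labels give only the number. In windows of 250 bases 14% of promoters held AGGTCA. Comparison of the proteins was not run.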
